A study of Mus musculus with 6 samples.

Results

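The cytosolic ribosomal protein genes encode the proteins of the large and the small subunit of the ribosome that translates nuclear messages. They were chosen by name: a gene belonged if its symbol was Rpl or Rps with a number and the usual suffix letters, or Rpsa, Rplp0, Rplp1 or Rplp2, while symbols of pseudogenes with a hyphen and of S6 kinases were left out. The rule found 89 of the 47643 genes listed in each file, 53 of the large and 36 of the small subunit. GENCODE M21 annotates 84 of them as protein coding and 5 as pseudogenes (Rpl6l, Rps12l1, Rps3a2, Rps3a3 and Rps4l). The members lie on 19 chromosomes, with 15 on chromosome 7. RNA was sequenced from ependymal cells, the multiciliated cells of the ventricle wall, sorted by flow cytometry for GFP from adult V-SVZ, the ventricular-subventricular zone of the brain. All mice of both groups had received tamoxifen 2 days earlier, which started GFP expression in ependymal cells. In the 3 samples of the Ccn1 conditional knockout (cKO) it also deleted Ccn1, the gene of a secreted matrix protein, and the 3 other samples are the control (labelled CTR). The sources used here do not give the driver of the recombinase, the Ccn1 allele, the strain or the exact age. Nothing there says that the samples came from separate animals, so a p-value measures only the spread between these 6 libraries, which may be technical.

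A ribosome contains a single copy of nearly every ribosomal protein, the stalk proteins being the main exception, and cells adjust the supply of these proteins largely through the translation of their messages. Those messages are short and abundant in most cells and usually begin with a C followed by a run of pyrimidines, the terminal oligopyrimidine motif through which mTOR signalling acts on their translation. They have also been copied back into the genome many times as processed pseudogenes, intron-less copies that can be nearly identical to the parent. Ependymal cells are post-mitotic, and their ribosomes serve a proteome that is rich in cilium components.

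The libraries held 13401417 to 15689497 rounded estimated counts, and 12460 to 14530 genes had at least 1. Levels are given as TPM, which is scaled for transcript length and library size, or as CPM, counts scaled to the library total by TMM and not scaled for length. Between pairs of libraries, log2 CPM of the genes tested correlated at only 0.60 to 0.71. The highest value joined cKO 2 with control 2, and the lowest cKO 3 with control 1. Ccn1 checked the labels, at 28.7 ± 10.4 CPM (SD, n = 3) in the cKO against 134 ± 20.6 CPM (SD, n = 3) in the control, and its groups did not overlap. The 8 ependymal markers summed to 24171 to 26046 CPM per library. Markers of other cells were lower: astrocyte genes, which ependymal cells share in part, summed to 2858 to 4950 CPM, choroid plexus genes to 269 to 772 CPM and oligodendrocyte genes to 193 to 595 CPM. Neuroblast, microglia and neuron markers stayed at or below 84.7, 41.5 and 11.8 CPM, and endothelial markers at or below 0.0744 CPM. These lists differed in order between libraries, and their part in the ribosomal protein levels was not tested.

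The ribosomal protein genes took a small part of each library. In the cKO they held 1.02%, 0.905% and 0.951% of the estimated counts in replicates 1, 2 and 3, and in the control 1.14%, 0.866% and 0.894%. By TPM their share was 2.20%, 2.02% and 2.05% in the cKO and 2.49%, 1.97% and 2.03% in the control. Control 1 held the highest share and control 2 the lowest, so the groups overlapped on both scales. In bulk RNA a lower level per cell and fewer expressing cells cannot be told apart. For scale within the same libraries, the 8 ependymal markers held more CPM than all members together, which summed to 8637 to 11769 CPM. CPM is not scaled for length, so this comparison holds for counts only. The 77 nuclear genes of mitochondrial ribosomal proteins summed to 6447 to 8672 CPM, and to 9927 to 12184 TPM beside 19721 to 24943 TPM for the cytosolic set. Genes encoded in the mitochondrial genome held 11.9% to 13.9% of the TPM.

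Although most of these proteins enter the ribosome in equal numbers, the genes were listed at very unequal levels. Over the 6 libraries the median member had 184 TPM, and the middle 50% of the members lay between 85.4 and 329 TPM. Of the 89 members, 34 had a mean of 200 to 500 TPM, 24 had 100 to 200, 10 had 50 to 100 and 6 had 10 to 50. A further 7 reached at least 500 TPM, among 297 genes of that level, 2 lay between 1 and 10 TPM, and 6 were under 1 TPM. The 6 highest members held 23.1% of the members' TPM.

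**Figure D1:**
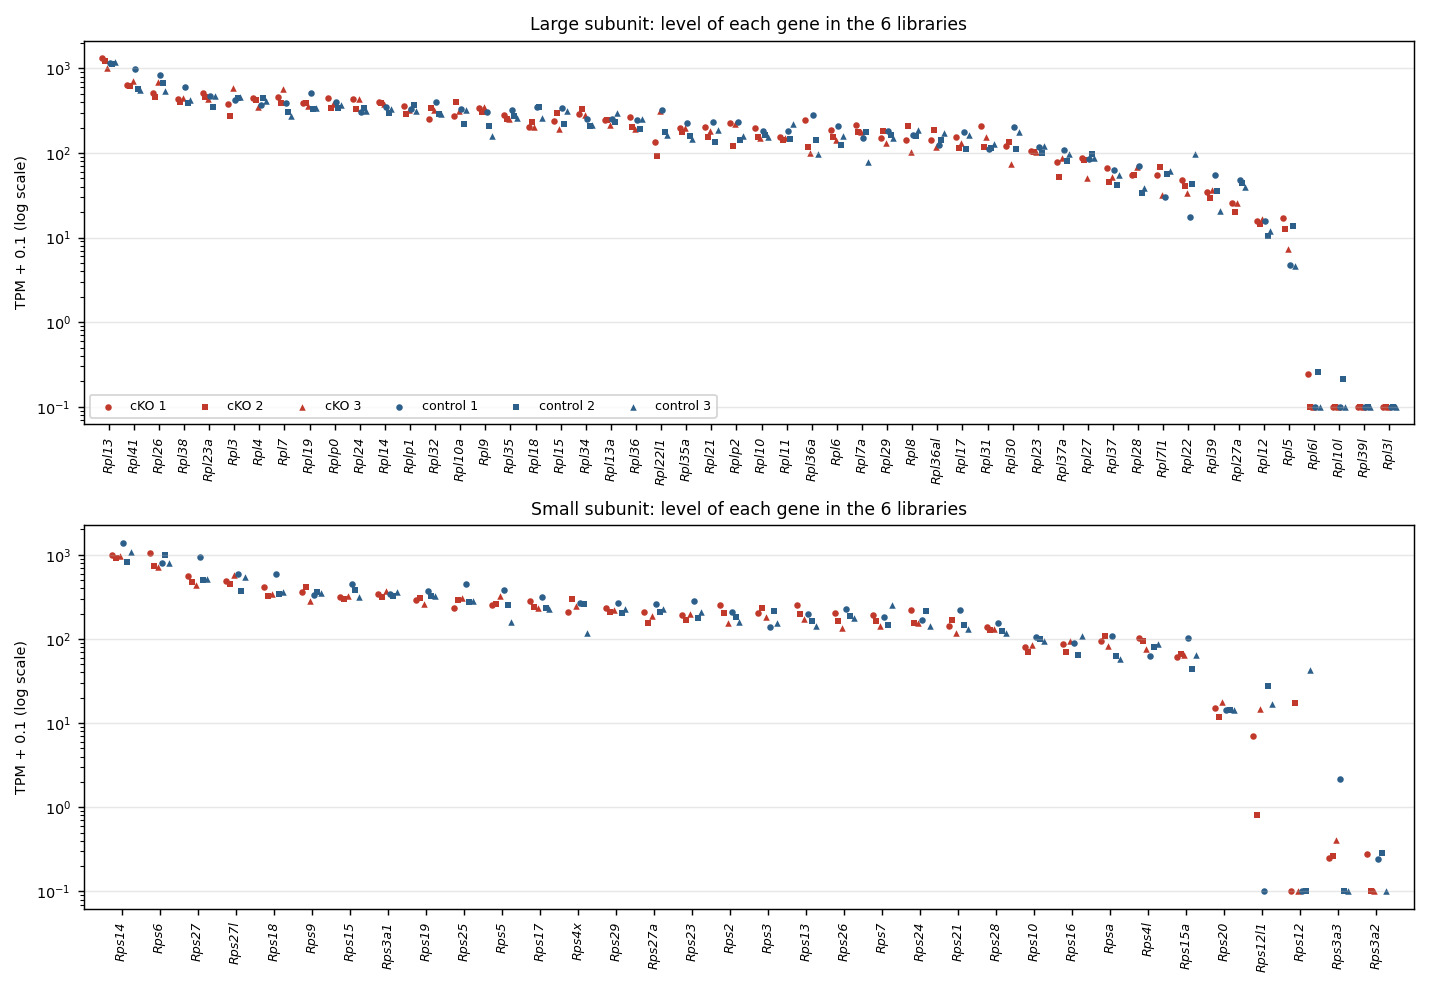
Level of 86 of the 89 genes in the 6 libraries, as TPM + 0.1 on a log axis, with genes of each subunit ordered by their mean (red, cKO; blue, control; circles, squares and triangles, replicates 1, 2 and 3). Most genes form a band between about 50 and 500 TPM with red and blue points mixed, and the right end of each panel holds genes that drop to the floor in some or all libraries.

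Among the large subunit genes, Rpl13 stood highest, with 1322, 1216 and 1009 TPM in the cKO and 1163, 1115 and 1199.7 TPM in the control, and ranked 99th of all genes by mean TPM. Its groups overlapped closely. Rpl41, whose product is an exceptionally short basic peptide, had 637, 621 and 715 TPM in the cKO and 982, 570 and 560 TPM in the control. Rpl26, a protein near the exit of the nascent chain, had 513, 456 and 687 TPM in the cKO and 843, 667 and 538 TPM in the control. In both genes control 1 was the highest library. The other controls lay below all cKO values for Rpl41 and among them for Rpl26. Rpl38, known from mice for its part in translating Hox messages, had 388 to 611 TPM. Rpl23a, a docking protein at the tunnel exit, had 345 to 518 TPM. The ranges of Rpl38 and Rpl23a overlapped.

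Among the small subunit genes, Rps14, a protein of the platform, had 1001, 909.6 and 974 TPM in the cKO and 1389, 822 and 1072 TPM in the control. Rps6, the classical substrate of the S6 kinases, had 1040.2, 738 and 721 TPM in the cKO and 796, 993 and 789 TPM in the control. Control 1 was highest for Rps14 and cKO 1 for Rps6, and the groups of each overlapped. Rps27, a zinc finger protein, had 563, 480 and 434 TPM in the cKO and 954, 503 and 514 TPM in the control. Control 1 was far above the other 5 libraries, which lay within 434 to 563 TPM. Its paralog Rps27l had 373 to 590 TPM and Rps18, a protein of the head, had 322 to 597 TPM. The ranges of Rps27, Rps27l and Rps18 overlapped.

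The stalk proteins recruit the translation factors with GTPase activity to the large subunit. Rplp0, the base of the stalk, had 340 to 445 TPM and Rplp1 had 289 to 366 TPM, each with overlapping groups. Rplp2 was lower, with 225, 120 and 219 TPM in the cKO and 229, 143 and 160 TPM in the control. The 6 values of Rplp1 all lay above the 6 values of Rplp2, although both proteins sit on the stalk as a heterodimer. Rpsa, a small subunit protein that is also described as a laminin receptor, had 94.2, 107 and 82.3 TPM in the cKO and 108, 63.1 and 58.0 TPM in the control, so control 1 was its highest library and the other controls its lowest.

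The start of these genes was compared with the motif that marks their messages. RefSeq promoters on GRCm38.p6 were matched by symbol for 64 members, with 76 start sites. A C at the annotated start followed by at least 4 pyrimidines was found at 13 of these 76 sites (17.1%) and at 823 of all 32851 promoters in the table (2.51%). With the start allowed to lie up to 5 bases away, the shares were 40.8% and 18.3%. The search read the sense strand only, and a match is a description of letters, not of a working site. The windows below show 15 bases before and 15 from the annotated start, 5′ to 3′, for genes of high level with and without the run. For a gene with several annotated starts, the one with the longest run is shown. Capitals mark the run of pyrimidines that begins with C at the start:
Rps6, chr4:86857353-86857382, minus strand: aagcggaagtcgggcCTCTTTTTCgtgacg
Rps27, chr3:90213634-90213663, minus strand: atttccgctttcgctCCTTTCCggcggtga
Rpl38, chr11:114668565-114668594, plus strand: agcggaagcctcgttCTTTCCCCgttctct
Rps18, chr17:33955651-33955680, minus strand: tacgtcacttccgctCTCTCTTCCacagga
Rpl14, chr9:120571502-120571531, plus strand: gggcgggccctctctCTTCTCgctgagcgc
Rpl13, chr8:123102335-123102364, plus strand: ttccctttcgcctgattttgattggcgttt
Rpl26, chr11:68901551-68901580, plus strand: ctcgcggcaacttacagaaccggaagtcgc
Rpl13, the most abundant member, and Rpl26 lack the run at the annotated start, while Rps6 and Rps18 each begin a run of 9 pyrimidines there. Rpl41, Rps27l, Rpl4, Rpl19, Rplp0 and Rpl24, which are not shown, also had a higher level than Rpl14 and lack the run. The windows shown therefore hold the run more often than the members' start sites do. The median GC content of the promoters was 58.2% for members and 52.7% for the whole table.

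Several members stood low while an intron-less copy elsewhere in the genome stood high. A near copy was defined as a gene with at least 50% of its 31-base words, the default word length of kallisto, found in the transcripts of a member. There were 263 such genes, and 70 members had at least 1. Together the near copies held 5.08% to 6.29% as much TPM as the members, and for the median member they held only 0.0359% of the summed level of gene and copies. By TPM that share was above 10% for 13 members and above 50% for 7. By estimated counts, which are not divided by length, it was above 10% for 11 and above 50% for 5.

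Gene and copy are set side by side here because reads from them are hard to place. The first 60 coding bases are printed 5′ to 3′ for 4 members and their copies, from GENCODE M21 on GRCm38, and a capital marks a base that differs from the member:
Rpl5, chr5:107900502-107909005, plus strand: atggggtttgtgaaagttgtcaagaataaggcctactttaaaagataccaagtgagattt
Gm15500, chr7:114705217-114706235, minus strand: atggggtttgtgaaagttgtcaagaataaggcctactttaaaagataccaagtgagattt
Rpl12, chr2:32961559-32965345, plus strand: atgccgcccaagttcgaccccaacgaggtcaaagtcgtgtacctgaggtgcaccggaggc
Gm10275, chr10:29698746-29699380, minus strand: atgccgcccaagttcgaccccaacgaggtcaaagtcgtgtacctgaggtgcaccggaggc
Rps12, chr10:23785183-23787275, minus strand: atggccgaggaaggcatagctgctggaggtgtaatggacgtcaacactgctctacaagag
Rps12-ps3, chr19:59322290-59322783, plus strand: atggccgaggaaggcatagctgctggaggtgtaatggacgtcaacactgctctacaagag
Rps12l1, chr7:56014016-56014414, plus strand: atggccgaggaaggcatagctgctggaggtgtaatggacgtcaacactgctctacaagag
Rpl3, chr15:80077791-80091868, minus strand: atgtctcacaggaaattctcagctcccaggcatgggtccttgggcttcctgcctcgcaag
Rpl3-ps1, chrX:13202571-13203780, plus strand: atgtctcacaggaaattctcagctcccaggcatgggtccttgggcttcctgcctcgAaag
Gm15500 is identical to Rpl5 over all 894 coding bases and Gm10275 to Rpl12 over all 498. Rps12-ps3 and Rps12l1 are each identical to Rps12 over all 399. Rpl3-ps1 matches Rpl3 at 1207 of 1209 aligned coding bases. Within such a stretch a read carries nothing that tells gene from copy, and its assignment depends on the untranslated ends and on the program's estimate.

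Rpl5, which joins the 5S ribosomal RNA and Rpl11 in a particle that can bind Mdm2, was listed at 17.1, 12.4 and 7.23 TPM in the cKO and 4.61, 13.6 and 4.51 TPM in the control. Its copy Gm15500, annotated as a transcribed processed pseudogene, was listed at 283, 324 and 377 TPM in the cKO and 361, 243 and 193 TPM in the control. The copies thus held 96.8% of the summed TPM (92.9% of the summed counts), and the sum of gene and copies was 197 to 384 TPM. Rpl12, a protein at the base of the stalk, had 10.4 to 16.5 TPM beside 80.5 to 156 TPM for Gm10275, which gave its copies 89.7% of the TPM and 75.9% of the counts. By TPM, copies also held 66.5% for Rpl27, mostly through Rpl27-ps3 with a mean of 161 TPM, 65.9% for Rpl27a through Gm7536, and 58.1% for Rps20 through Gm4332. These shares turned on the scale: by counts they were 52.5%, 28.6% and 4.58%, and the copies of Rpl27a and Rps20 had fewer counts than the gene in all 6 libraries.

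The Rps12 family showed the most uneven listing. Rps12, a protein of the small subunit head, had 0, 42 and 0 estimated counts in the cKO and 0, 0 and 124 in the control. Rps12-ps3 had 42, 0 and 82 counts in the cKO and 141, 27 and 58 in the control, and Rps12l1 had 13, 1 and 29 in the cKO and 0, 49 and 35 in the control. In cKO 2, which had 0 and 1 counts for the copies, Rps12 had 42. The total of the 3 genes was not even between libraries, because control 3 had more counts than cKO 2 for each of them. Rpl3, a protein of the peptidyl transferase centre, was listed lower in 1 library where its copy was listed high. Its level was 379, 271 and 580 TPM in the cKO and 424, 445 and 465 TPM in the control, and Rpl3-ps1 was at 194 TPM (2132 counts) in cKO 2 and at no more than 2 counts in the other 5 libraries. Gene and copy together gave 465 TPM in cKO 2, within the range of the other libraries.

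**Figure D2:**
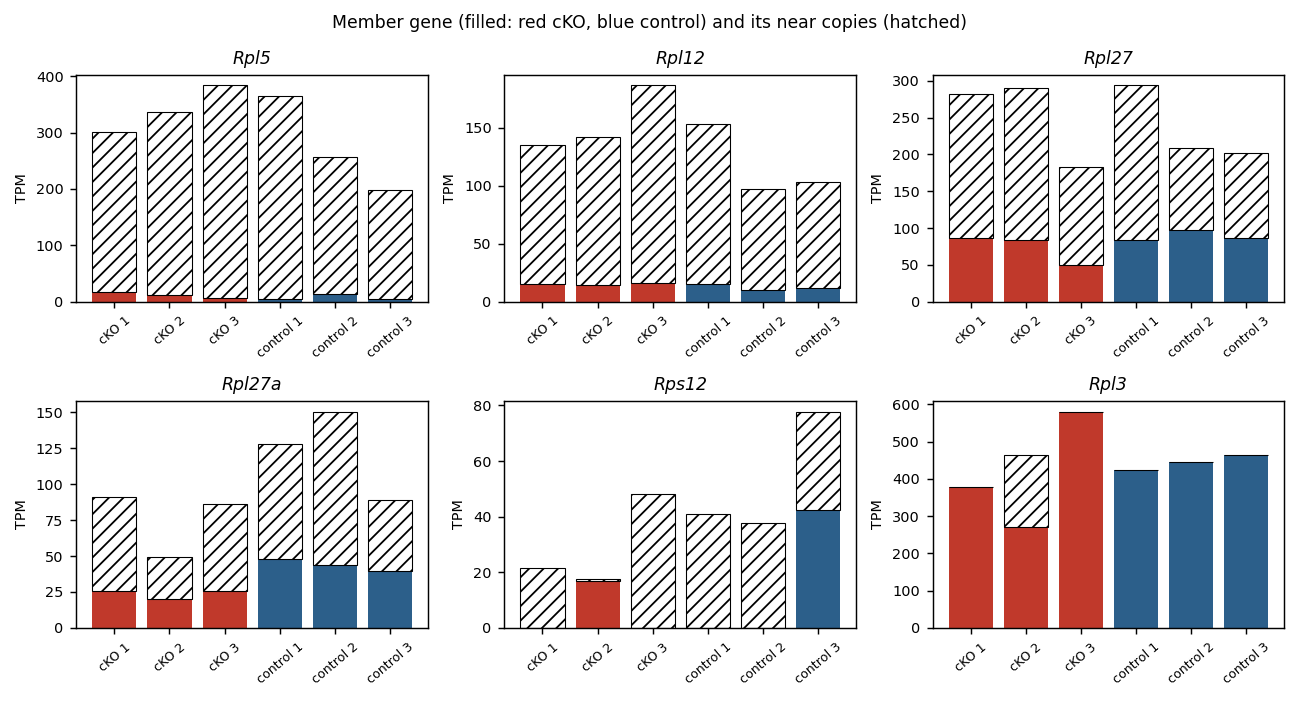
Stacked bars of TPM per library for 6 members (filled; red, cKO; blue, control) and the sum of their near copies (hatched), each panel on its own axis from 0. The copies hold most of the TPM of Rpl5, Rpl12, Rpl27 and Rpl27a in every library (by counts in 6, 6, 4 and 0 of the 6 libraries), while for Rps12 the holder changes between libraries and for Rpl3 a copy appears in cKO 2.

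The paralogs on a fixed list ranged from abundant to undetected. Rps27l was nearly as abundant as Rps27 (mean 503 and 575 TPM). Rpl36al had 119 to 188 TPM, beside Rpl36a with 248, 119 and 99.0 TPM in the cKO and 282, 142 and 96.7 TPM in the control. Rpl36a was high in replicate 1 of each group. Rps4l, annotated as a transcribed processed pseudogene, had 62.4 to 101 TPM, beside 119 to 300 TPM for Rps4x on the X chromosome. Rpl7l1, the nucleolar relative of Rpl7, had 30.2 to 69.0 TPM, beside 276 to 565 TPM for Rpl7.

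The pair Rpl22 and Rpl22l1 varied strongly between libraries; the Rpl22 protein is known to repress Rpl22l1. Rpl22l1 had 135, 92.7 and 310 TPM in the cKO and 326, 177 and 163 TPM in the control, which made it the member of at least 50 TPM with the highest ratio of highest to lowest library (3.51). Rpl22 had 47.6, 40.3 and 33.4 TPM in the cKO and 17.4, 42.5 and 97.2 TPM in the control. By TPM, control 1 held the highest Rpl22l1 and the lowest Rpl22 value. Control 3 held the highest Rpl22 value and cKO 2 the lowest Rpl22l1 value. A link between the levels of the pair was not tested. Rpl22l1 had the higher TPM of the pair in each of the 6 libraries. The order of the libraries for Rpl22 depended on the unit. In CPM it had 18.9, 39.8 and 13.2 in the cKO and 9.92, 41.0 and 25.7 in the control, so control 2 was highest, and control 1 was lowest on both scales.

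Paralogs known from testis or striated muscle were at the floor. Rpl39l and Rpl3l had 0 counts in all 6 libraries, and Rpl10l had 1 count in control 2 and 0 elsewhere. The pseudogenes Rpl6l, Rps3a2 and Rps3a3 were near 0 too, with a highest value of 0.155, 0.186 and 2.06 TPM. Together with Rps12 and Rps12l1, these make 8 members with 3 or fewer counts in at least 1 library. The remaining 81 members were detected in every library. Of the 79 members with a mean of at least 200 counts, 0 had a library at the floor, against 905 of 7127 other genes at that count (12.7%). The members stood high within that range, and the contrast shrank with the count. At 200 to 400 counts it was 0 of 7 members against 32.9% of other genes, and at 400 to 1000 it was 0 of 26 against 9.46%. From 1000 counts it was 0 of 46 members against 0.0762% of other genes.

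Length entered the levels in a further way. Counts per TPM, which grow with the effective length that the authors' program gave a gene, ranged from 1.52 for Rps27 to 44.4 for Rps20 with a median of 6.37. Rps20 therefore had only 11.6 to 17.8 TPM from 472 to 772 counts, and its shortest coding transcript in GENCODE M21 is 3706 bases long. Rpl5 (22.9) and Rps3 (21.1) also stood high. Across 87 members, counts per TPM and mean TPM had a Spearman correlation of -0.19, given as a description because TPM is itself computed with that length.

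Summed by subunit, the large subunit genes held 12316 ± 528 TPM in the cKO and 12410 ± 1468 TPM in the control, and the small subunit genes 8586 ± 482 and 9250 ± 1393 TPM (SD, n = 3 each). The mean level per large subunit gene divided by that per small subunit gene was 0.957, 0.963 and 1.01 in the cKO and 0.881, 0.923 and 0.938 in the control. The 3 control ratios lay below the 3 cKO ratios, at 0.914 ± 0.0292 against 0.975 ± 0.0266 (SD, n = 3 each). The ratio of the median levels did not separate the groups, with 0.984, 0.966 and 1.05 in the cKO and 1.02, 0.829 and 1.03 in the control. By estimated counts in place of TPM the mean ratios overlapped between the groups, with control 3 above cKO 1 and cKO 2. Which subunit was higher depended on the members counted: without the 8 listed paralogs the mean ratio was 1.08 in the cKO and 1.004 in the control, and without Rpl13 it was 0.899 and 0.844. No test was made of these ratios, because members are not replicates.

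**Figure D3:**
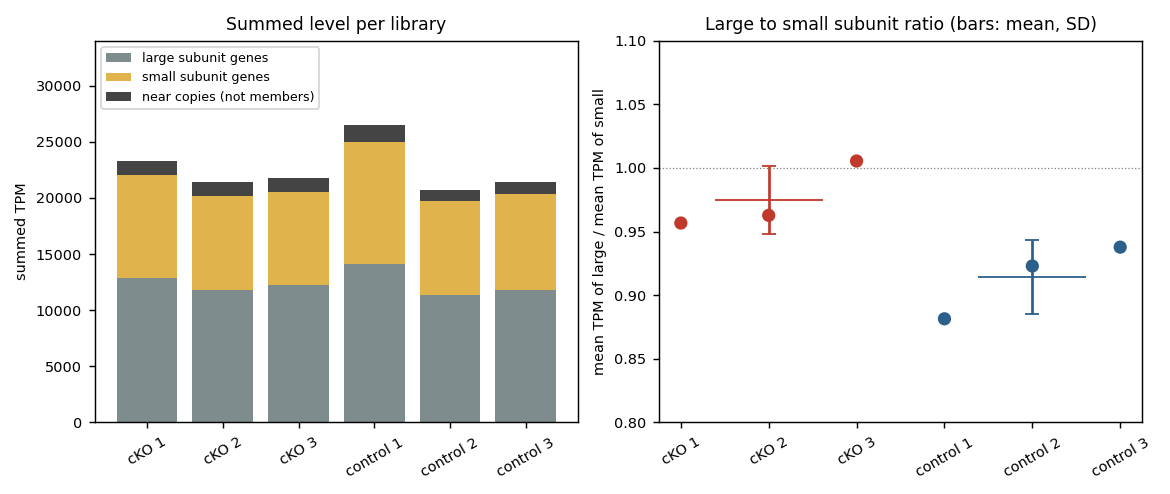
Left, summed TPM per library of large subunit genes, small subunit genes and near copies that are not members, stacked from 0; right, ratio of the mean TPM per large subunit gene to that per small subunit gene in each library (points; bars, mean and SD of 3; the axis does not start at 0). Control 1 has the highest sum, and the control ratios of 0.881 to 0.938 lie below the cKO ratios of 0.957 to 1.01.

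A filter on low counts kept 82 members, 49 of the large and 33 of the small subunit, for the analysis of differences. Rpl10l, Rpl39l, Rpl3l, Rpl6l, Rps12, Rps3a2 and Rps3a3 did not pass. The coefficient of variation over the 6 libraries had a median of 21.6% for the 64 members between 27.2 and 270 CPM, against 37.6% for 4565 other genes in that range. Members and other genes were not matched by level within the range, so the contrast is not one between genes of equal level. The steadiest member was Rpl4, a protein that lines the exit tunnel, with 354 to 449 TPM and a variation of 7.31%. The least steady were Rps12l1 at 94.0%, Rpl36a at 54.4%, Rpl22 at 53.6% and Rpl22l1 at 52.3%. Rpl30 also varied, with 121, 136 and 74.5 TPM in the cKO and 204, 113 and 178 TPM in the control.

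Control 1 stood apart from the other libraries for these genes. It was the highest library for 50 of the 82 members (61.0%) and for 21.01% of all genes tested. Its median log2 deviation from the mean of the 6 libraries was 0.37 for the members, while the other libraries lay between -0.15 and 0.07. The pattern was stronger in members with fewer counts per TPM, that is with shorter models. Control 1 was highest for 31 of these 41 members (75.6%) and for 19 of the other 41 (46.3%). The median deviation in control 1 was 0.46 for the former and 0.25 for the latter, so members with longer models had the pattern too.

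Other short genes shared it. Among genes of at least 50 CPM outside the set, control 1 was highest for 124 of 181 with as few counts per TPM (at most 6.32; 68.5%) and for 767 of the other 3241 (23.7%). Mitochondrial ribosomal protein genes had the control 1 pattern too, with control 1 highest for 35 of 77 (45.5%) and a median deviation of 0.38. They were not split by counts per TPM, so they are not counted as short genes here. Control 1 also had the fewest genes with a count (12460). The part of model length in the control 1 values was not tested.

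**Figure D4:**
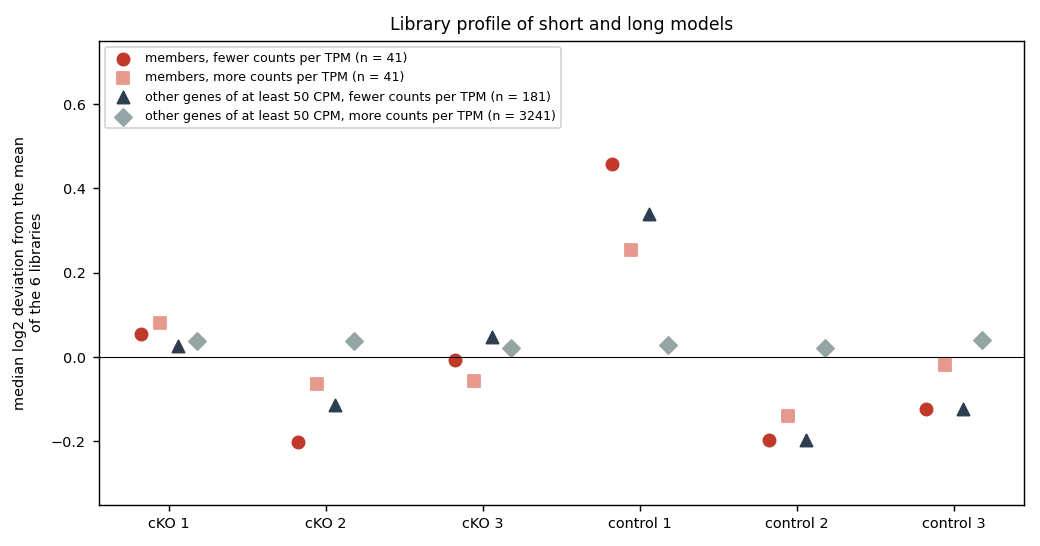
Median log2 deviation of CPM from the mean of the 6 libraries, for members with fewer or more counts per TPM (circles, squares) and for other genes of at least 50 CPM split at the same value (triangles, diamonds). In control 1 the members with fewer counts per TPM lie at 0.46 and those with more at 0.25. Other genes lie at 0.34 with fewer counts per TPM and at 0.029 with more.

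The design compares the cKO with the control, which asks what loss of Ccn1 in ependymal cells changes. No ribosomal protein gene passed the test. With edgeR's quasi-likelihood test and Benjamini-Hochberg adjustment over all 11574 genes tested, 0 of 82 members were called at an adjusted p of 0.05, where 0% of all genes were. At an unadjusted p under 0.05 the count was again 0 of 82, against 2.75% of all genes. DESeq2 called 0 of 82 members at an adjusted p of 0.05, against 1.63% of the 12133 genes to which it gave an adjusted p, and 2 of 86 at an unadjusted p, against 6% of 17858 genes. Those 2 were Rpl18 and Rpl27a. By limma-voom the counts were 0 (0% of all genes) after adjustment and 1, Rpl7, before it (5.25% of all genes). Among all genes tested the smallest adjusted p of edgeR was 0.779, so the members share their lack of calls with the rest of the table. Ccn1, the deleted gene, was not called by edgeR either, so a lack of calls does not show a lack of change. Its log2 difference was -2.22 ± 0.38 (SE), with an unadjusted p of 0.000415 and an adjusted p of 0.99999 by edgeR. DESeq2 gave Ccn1 an adjusted p of 4.1e-06.

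The log2 differences (cKO minus control) of the members ran from -0.89 to 0.72, with 31 above and 51 below 0. Their median was -0.075, against 0.0044 for all genes tested. Of the large subunit genes 21 were higher and 28 lower, and of the small subunit genes 10 were higher and 23 lower, with medians of -0.079 and -0.073. Without control 1 the median of the members was 0.10. The groups did not overlap in CPM for 2 members with higher cKO values (2.44%, against 4.99% of all genes tested) and for 3 with lower cKO values (3.66%, against 4.62%).

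**Figure D5:**
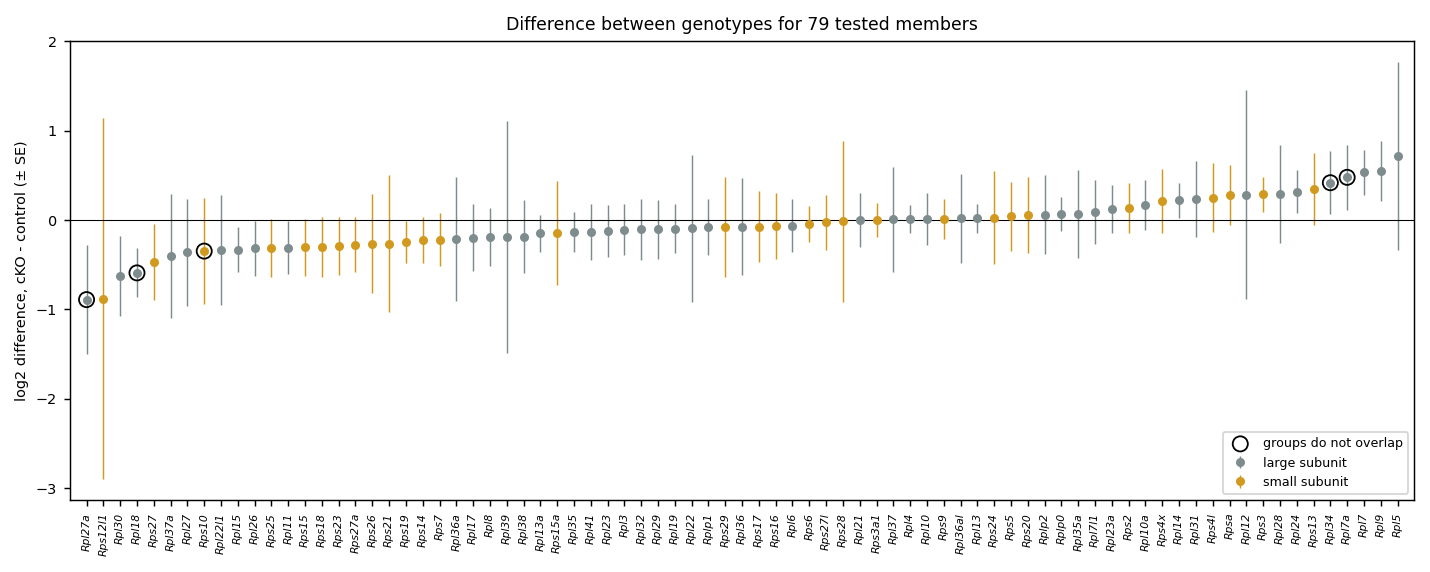
Log2 difference of CPM, cKO minus control, for 79 of the 82 tested members in order of the difference. Bars show a standard error derived from edgeR's F statistic. Large subunit genes are grey and small subunit genes ochre, and rings mark genes whose groups do not overlap. The values run from -0.89 to 0.72, the bars of most genes cross 0, and both subunits are spread along the order.

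Rpl18, a large subunit protein, had the smallest p of the members. It stood at 76.2, 82.04 and 77.3 CPM in cKO and 141, 122 and 92.3 CPM in the control, with a log2 difference of -0.59 ± 0.27 (SE) and, by edgeR, an unadjusted p of 0.0622 and an adjusted p of 0.99999. All cKO values lay below all control values. Rpl7 came next, with 376, 303 and 466 CPM in cKO and 345, 231 and 214 CPM in the control (log2 difference 0.54 ± 0.25, edgeR unadjusted p = 0.0673). Its groups overlapped because control 1 lay above cKO 2. For Rpl9 the values were 144, 123 and 155 CPM in cKO and 142, 82.5 and 63.5 CPM in the control (0.55 ± 0.34), with control 1 among the cKO values. Leaving out control 1 gave Rpl9 a log2 difference of 0.95, and leaving out control 3 gave 0.33.

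The other genes without overlap were named after their values had been seen. Rpl27a, which has Gm7536 as a near copy, had 20.7, 15.5 and 20.9 CPM in cKO and 42.1, 33.2 and 30.5 CPM in the control. Its log2 difference was -0.89 ± 0.61. With its copies added, the TPM of the family overlapped between the groups. Rps10, which lies at the entry of the message, had 25.3, 20.7 and 27.0 CPM in cKO and 35.7, 29.3 and 27.9 CPM in the control (-0.35 ± 0.59, and -0.23 without control 1). Rpl34 had 64.6, 74.2 and 65.5 CPM in cKO and 62.3, 44.0 and 46.7 CPM in the control (0.42 ± 0.35). Rpl7a had 126, 98.3 and 104 CPM in cKO and 94.8, 96.9 and 43.7 CPM in the control (0.48 ± 0.36), a gap of little more than 1 CPM between cKO 2 and control 2. Without control 3 its log2 difference was 0.19.

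Rack1 and Fau, ribosome components outside the name rule, were read beside the members. Rack1, a scaffold protein on the head of the small subunit that is listed as Gnb2l1, had 92.7, 117 and 94.6 CPM in cKO and 200, 171 and 160 CPM in the control, with no overlap. Its log2 difference was -0.81 ± 0.23, with an unadjusted p of 0.00846 and an adjusted p of 0.99999 by edgeR, and DESeq2 gave an adjusted p of 0.00737. Fau, which encodes a small subunit protein fused to a ubiquitin-like one, had 65.1, 73.5 and 107 CPM in cKO and 93.6, 59.0 and 61.8 CPM in the control (0.20 ± 0.35, and -0.051 without cKO 3).

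In the lists of other translation genes, edgeR called 0 genes as well. Of 15 tested elongation and release factors 6 were higher and 9 lower in the cKO, and of 39 initiation factors 24 were higher and 15 lower. Of 59 genes of ribosome biogenesis and RNA polymerase I 32 were higher and 27 lower, and of 24 regulators of ribosomal protein synthesis 9 were higher and 15 lower. Mitochondrial ribosomal protein genes counted 28 higher and 49 lower of 77, with a median log2 difference of -0.11, and for these too control 1 was the highest library most often. At an unadjusted p under 0.05 by edgeR these lists held 1 of 15, 3 of 39, 2 of 59, 1 of 24 and 0 of 77 genes, in the order given, against 2.75% of all genes tested.

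The genes with the smallest p of each list are given with their CPM. Rps6kb1, the S6 kinase that phosphorylates Rps6, had 48.5, 71.0 and 77.2 CPM in cKO and 12.04, 31.1 and 18.5 CPM in the control (log2 difference 1.68 ± 0.54; adjusted p = 0.99999 by edgeR and 0.0486 by DESeq2). Gnl3l, a nucleolar GTPase, had 156, 155 and 165 CPM in cKO and 105, 102 and 113 CPM in the control (0.58 ± 0.22; adjusted p = 0.99999 by edgeR and 0.00745 by DESeq2). The groups of each did not overlap. Nop56, a core protein of box C/D particles, had 144 to 224 CPM in cKO and 74.2 to 119 CPM in the control, and Eif4g2, a scaffold of alternative initiation, had 247 to 329 against 178 to 223 CPM. Eif2b1, a subunit of the exchange factor for eIF2, had 58.2 to 125 CPM in cKO and 41.7 to 45.3 CPM in the control. Rheb, the GTPase that activates mTOR, had 503 to 662 and 422 to 532 CPM, with overlap. Gspt1, a release factor, had 23.3 to 39.5 CPM in cKO and 45.9 to 96.0 CPM in the control (log2 difference -0.93 ± 0.49, and -0.51 without control 1). Pabpc4 had 24 to 151 counts in the cKO and 1 to 6 in the control, where it was close to the floor. Its difference was not followed under the other settings. Mrpl45 had 76.3 to 146 CPM in cKO and 119 to 236 CPM in the control, and Mrps34 had 80.7 to 120 and 47.3 to 76.2 CPM.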

How the data were processed

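Per the submitters' processing notes, CASAVA 1.8, cutadapt 1.11 and kallisto 0.42.5 were used. The sources used here do not give the build, the annotation or how transcripts were summed. Per the file headers, the authors computed an estimated count (kallisto's expected count) and a TPM value per gene. The counts are not normalized and were rounded here. Kallisto splits ambiguous reads among near-identical copies by estimate, and such members are uncertain. Identifiers were matched to GENCODE M21 (GRCm38) without version (99.1%). Genes passing filterByExpr were tested after TMM scaling with edgeR 4.0.16 (robust quasi-likelihood test, genotype only, Benjamini-Hochberg over all genes tested, threshold 0.05) in R 4.3.3. Alternatives were DESeq2 1.42.0, limma 3.58.1, other scalings, filters and units, a block for replicate number, and leaving out each library. The standard error of an edgeR log2 difference was derived here as its absolute value divided by the square root of the F statistic. The scripts were tested on simulated data.

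The members and the gene lists were chosen with earlier results of these data known. Named genes were Ccn1, the 6 most abundant members of each subunit, the 4 with the smallest p, the 4 of at least 50 TPM with the highest ratio of highest to lowest library, the 3 least detected outside the paralog list, the paralogs with their closest copies, Rplp0, Rplp1, Rplp2 and Rpsa, up to 2 genes per other list by smallest p, and other ribosome components (Fau, Rack1). Some genes this rule takes are not reported here, nor drawn. Other names were chosen after their values were seen. A floor of 3 counts was used, and promoters are RefSeq's on GRCm38.p6.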

Additional observations from a re-analysis of the deposited data

How the results depend on the processing

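The count of members called was 0 under all 10 other settings and with each library left out. Over all genes edgeR called 0 and DESeq2 198; no other setting called any. Members at an unadjusted p under 0.05 numbered 0 in edgeR (2.75% of all genes tested), 1 without a filter on low counts (3.11%), 2 by DESeq2 (6%), 1 by limma-voom (5.25%), 4 of 82 (4.88%) by limma on log2(TPM + 1) (4.16%), 5 of 82 (6.1%) on log2(TPM + 0.1) (4.11%), 5 of 87 (5.75%) on unfiltered log2(TPM + 1) (2.81%), and 0 to 3 with a library left out (3 of 83 without control 1, against 4.19%). The median log2 difference of the members was -0.075, from -0.19 to 0.10 with a library left out; it turned positive (0.10) without control 1, and the cause was not tested. By estimated counts in place of TPM, the summed share was 0.958% in the cKO and 0.968% in the control, and the ratio of large to small subunit 1.17 and 1.12. Without the paralogs the ratio was 1.08 and 1.004; without Rpl13 it was 0.899 and 0.844, and the cKO share 1.97%. With near copies added, an alternative chosen after seeing the data, the ratio was 1.02 and 0.951 and the cKO share 2.21%. The mean control ratio was the lower of the pair in each of these, which compares group means only. By estimated counts the libraries of the groups overlapped, with control 3 above cKO 1 and cKO 2. Of 336 values for 21 genes, 1 changed sign, Fau at -0.051 without cKO 3 (-0.051 to 0.45 with a library left out), and 4 passed the threshold, all by DESeq2 (Ccn1, Rack1, Gnl3l and Rps6kb1). Leaving out 1 library moved some uncalled differences by over 1.5 times: Rpl9 (0.95 without control 1, 0.33 without control 3), Rpl7a (0.19 without control 3), Rps10 (-0.23) and Gspt1 (-0.51) without control 1, Rheb (0.17 without cKO 3), and Fau without any library but cKO 2. Members without overlap numbered 5 of 82 in CPM, where 4.99% of all genes tested lay apart with higher and 4.62% with lower cKO values. They numbered 5 to 7 under other settings, with 7 by TPM. The share over all genes was not computed for those settings. With a replicate block in the fit, 0 members and 0 genes were called and the median was -0.045; same-numbered samples correlated at 0.0080, 0.0312 and 0.0152, each best with its own number but all under 0.1, so the numbers were not taken to pair samples. The values of genes with few counts, such as Rps12, are uncertain, and the part of depth and of near copies in them was not tested.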
